A study of Homo sapiens with 4 samples.

Results

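The genes of the mitochondrial respiratory chain and ATP synthase were examined for changes in splicing after a decoy for RBFOX proteins was introduced into U87MG cells. Members were all splicing events whose gene symbol began with NDUF, UQCR, ATP5 or COX followed by a digit, or was SDHA, SDHB, SDHC or SDHD. ATP5C1, which encodes the gamma subunit of ATP synthase, was left out. The rule took 612 of the 121269 events in the 5 tables and 86 of the 12219 genes named in them. It used names and no measured values. It also took a few genes whose symbols share a prefix but whose products are not subunits, such as the assembly factors of complex I (NDUFAF genes) and of cytochrome c oxidase, and ATP5S and ATP5SL, which current annotation calls DMAC2L and DMAC2.

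U87MG is an established line of human glioblastoma cells. Cells received 2.5 µM of oligonucleotide with a lipid reagent, either RBFOXi, a modified RNA made of repeats of the RBFOX binding motif, or SCRM, a scrambled control that resembles no known exonic splicing enhancer. Each condition had 2 independent cultures, and 1 of the RBFOXi cultures (replicate 1) received the oligonucleotide with the fluorescent label Cy5 while the other did not. All groups were 1 cell line at 1 dose, no untransfected cells were analysed here, and every comparison therefore rests on 2 libraries against 2. The libraries carried plentiful reads on events of VIM, CD44 and TNC, genes expressed by mesenchymal and glial cells, while NES had 179 to 432, and SCRM replicate 1 stood apart in several measures that are given beside the results below. GFAP, S100B, SOX2 and OLIG2 had no event in the tables and could not be checked. Reads on events of genes that mark other cells were few for SYT1 (neurons), MBP (oligodendrocytes) and VWF (endothelium), at most 321 in a library, while CD68, a lysosomal marker of macrophages, had many (264461 to 409308).

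The respiratory chain passes electrons from NADH through complex I, or from succinate through complex II, to complex III and on to complex IV, which reduces oxygen. Protons pumped on the way drive ATP synthase, also called complex V. Most subunits are encoded by nuclear genes, whose transcripts are short, abundant and spliced in the ordinary way, and dedicated assembly factors put the complexes together. RBFOX proteins bind the hexamer UGCAUG in introns, and in general a site downstream of an exon favours its inclusion while a site upstream favours skipping.

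Inclusion was expressed as PSI, the length-corrected share of reads that carry an exon or segment, on a scale from 0 to 1. Delta PSI is the mean of RBFOXi minus the mean of SCRM. A change was called at an adjusted p under 0.05 together with a delta PSI of at least 0.1 in size, from a limma fit to the log2 odds of inclusion across all events of a type.

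Before the values, the sequences of some short coding exons of member genes that were included in only part of the transcripts are shown. All are from hg19, read on the strand of the gene, with the exon in capitals and 20 nt of each intron in lower case. The SDHC exon spans chr1:161298186-161298287 (plus strand), the NDUFB5 exon chr3:179333771-179333837 (plus), the COX20 exon chr1:245005246-245005360 (plus), the ATP5I exon chr4:667701-667755 (minus) and the ATP5SL exon chr19:41942297-41942377 (minus).
SDHC: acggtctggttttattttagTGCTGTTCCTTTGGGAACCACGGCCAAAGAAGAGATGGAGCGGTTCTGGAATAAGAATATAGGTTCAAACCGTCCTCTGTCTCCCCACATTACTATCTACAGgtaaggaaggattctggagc
NDUFB5: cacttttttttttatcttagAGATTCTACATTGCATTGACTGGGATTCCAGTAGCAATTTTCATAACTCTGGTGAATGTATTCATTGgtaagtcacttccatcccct
COX20: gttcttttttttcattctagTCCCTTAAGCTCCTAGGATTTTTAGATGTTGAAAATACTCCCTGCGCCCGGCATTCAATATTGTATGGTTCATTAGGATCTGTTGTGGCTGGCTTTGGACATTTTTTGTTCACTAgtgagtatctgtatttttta
ATP5I: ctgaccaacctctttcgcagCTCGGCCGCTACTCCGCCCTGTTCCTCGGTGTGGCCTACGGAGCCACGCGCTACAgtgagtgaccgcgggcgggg
ATP5SL: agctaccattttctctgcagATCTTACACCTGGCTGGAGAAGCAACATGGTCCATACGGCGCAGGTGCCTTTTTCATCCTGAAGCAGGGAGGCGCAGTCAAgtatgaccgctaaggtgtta

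No event of the member genes was called as changed. ATP5C1, left out by name, did have a called exon, which is given below. Of 412 skipped exon events in these genes, 252 in 75 genes passed the filter on counts, and 0 of the 252 were called, against 27 of all 39615 events tested (0.0682%). The counts were also 0 of 126 for mutually exclusive exons, 0 of 15 for alternative 3′ splice sites, 0 of 30 for alternative 5′ splice sites and 0 of 8 for retained introns, types in which no event of any gene was called (0%). The smallest adjusted p of a member was 0.995. With the same minimum of delta PSI, 0 members were called by a quasi-binomial F test, and 0 by Fisher's exact test when the counts of both libraries of a condition were added up. Fisher's test, which treats reads as separate, gave members adjusted p down to 4.68e-30, so its 0 rests on the minimum of delta PSI.

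Unadjusted p-values fell below 0.05 in 7 of the 252 skipped exon events, against 3.61% of all events tested. The same held for 1 of 126 mutually exclusive events, against 1.51% of all, and for 2 of 30 alternative 5′ splice site events, against 3.59% of all, and for 0 of the remaining events, against 3.32% of alternative 3′ splice site events and 1.74% of retained introns. The 7 skipped exon events belonged to NDUFS8, ATP5A1, COX7A2 and NDUFA13. Every one of them was included at over 0.995 in all 4 libraries, and their delta PSI lay between -0.00216 and 0.00307, a matter of few skipping reads.

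The libraries of the 2 conditions did not overlap in 71 of 252 skipped exon events (28.2%), against 30.8% of all events tested. They did not overlap in 20 of 126 mutually exclusive events, against 24.4% of all, in 3 of 15 alternative 3′ splice sites, against 30.9%, in 5 of 30 alternative 5′ splice sites, against 30.1%, and in 1 of 8 retained introns, against 27.9%. The shares in the respiratory chain genes were thus at or below the background.

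Many events share an exon, so each exon was next represented by its event with most counts, which left 181 exons in 75 genes. These exons were mostly constitutive and deeply covered. The median count per library was 3313 against 522 over all 30617 exons tested. In SCRM, 139 of the 181 (76.8%) were included at a PSI above 0.95, against 65.7% of all exons, 17 (9.39%) lay between 0.1 and 0.9, against 17.9%, and 16 (8.84%) lay under 0.1, against 7.25%. Of the 160 events that were not tested, 136 failed only because fewer than 4 skipping counts were found over the 4 libraries together.

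Differences between the conditions were small. The median delta PSI over the 181 exons was -0.000133, beside -0.000132 over all exons, and 86 exons were higher and 95 lower in RBFOXi. The median size of the difference was 0.00155 beside 0.00756 over all exons. A difference of at least 0.05 was seen in 6 exons (3.31%) against 11.7% of all, and one of at least 0.1 in 2 exons (1.10%) against 4.43% of all. Exons near full inclusion can move little on the PSI scale.

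For contrast, the 37 nt exon of ATP5C1 (chr10:7848937-7848973) was called as changed, with a delta PSI of 0.212, and is among the 27 called skipped exon events. It was included at 0.953 and 0.957 in RBFOXi and at 0.692 and 0.794 in SCRM, a rise of 2.84 in log2 odds (95% interval 2.14 to 3.54, limma adjusted p = 0.00244). The 95% interval excluded both a rise and a fall of that size in 111 of the 181 exons, and in 16 of the 17 exons at intermediate inclusion. It lay within 1 log2 unit of 0 on either side, a 2-fold change in odds, in only 23 of the 181. A 2-fold change was therefore not excluded for most exons at this depth and with 2 libraries a side. The median half-width of the interval over the 181 exons was 2.00 log2 units.

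**Figure D1:**
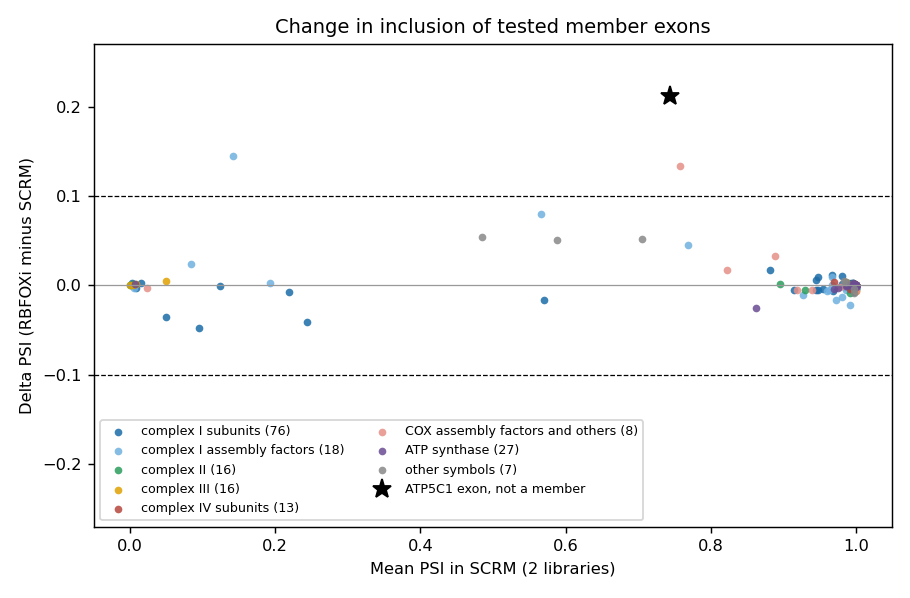
Delta PSI of the 181 tested exons (y axis, RBFOXi minus SCRM) against their mean PSI in SCRM (x axis), coloured by complex, with the ATP5C1 exon as a star and dashed lines at a delta PSI of 0.1 in either direction. Most exons lie at the right edge close to 0, and the 2 member exons above the upper line are listed under NDUFAF5 and COX16.

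Complex I subunits, the largest group, contributed 76 exons of 35 genes. In SCRM 60 of them were included above 0.95 and 5 lay between 0.1 and 0.9. The 5 belonged to NDUFA8, NDUFB3, NDUFB5, NDUFV3 and, by name only, NDUFA13. None of the 76 exons differed by 0.05 or more, the largest difference being 0.0475 in size.

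NDUFA8 encodes an accessory subunit with paired cysteines, and its 164 nt coding exon (chr9:124914524-124914687) was the most deeply covered of them, with 7943 to 10654 counts per library. Its PSI was 0.895 and 0.904 in RBFOXi and 0.864 and 0.90 in SCRM. SCRM replicate 1 was the lowest and the conditions overlapped. The difference in log2 odds was 0.24 (95% interval -0.33 to 0.81).

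NDUFV3 encodes a small subunit of the NADH-binding part of complex I, and a 1095 nt coding exon (chr21:44323292-44324386), a multiple of 3, sets a long and a short form of the protein apart. This exon was included at 0.173 and 0.251 in RBFOXi and at 0.138 and 0.300 in SCRM. The replicates of each condition lay farther apart than the means of the conditions, which differed by -0.00716. The libraries held 2940 to 4505 counts, and the interval of the log2 odds ran from -0.80 to 0.82.

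NDUFB5, a membrane-arm subunit, had the most evenly split exon of the group. The 67 nt exon printed above was included at 0.535 and 0.574 in RBFOXi and 0.568 and 0.573 in SCRM (difference in log2 odds -0.10, 95% interval -0.79 to 0.60). Its length is not a multiple of 3. RBFOXi replicate 1 was the lowest of the 4 libraries.

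NDUFB3, another membrane-arm subunit, had a 23 nt exon outside the coding sequence at chr2:201937062-201937084 (plus strand), shown whole because it is short and has 2 copies of the RBFOX hexamer in the next 300 nt.
NDUFB3: GCAGAAGAACAGCATCACTAAAA
It was included at 0.121 and 0.124 in RBFOXi and at 0.113 and 0.135 in SCRM, over 2619 to 2992 counts. The RBFOXi values lay between the SCRM values, and the log2 odds differed by -0.01 (95% interval -0.67 to 0.66).

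The exon listed under NDUFA13 at intermediate inclusion (109 nt, chr19:19643441-19643549) is not annotated in NDUFA13 but in the neighbouring gene YJEFN3 and a read-through transcript. It had 11 to 41 counts per library and a PSI of 0.130 and 0.275 in RBFOXi and 0.160 and 0.328 in SCRM. Events of this locus are listed under the NDUFA13 symbol, and whether they bear on the NDUFA13 protein was not determined. The 79 nt exon at chr19:19636991-19637069, which is annotated in NDUFA13, was included at 0.996 to 0.998.

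NDUFC1, a small subunit, had exons of 59 nt and 36 nt outside the coding sequence that were rarely used. The 59 nt exon (chr4:140218539-140218597) was included at 0.0432 and 0.0532 in RBFOXi and at 0.114 and 0.0770 in SCRM, and the 36 nt exon (chr4:140217486-140217521) at 0.0133 and 0.0142 in RBFOXi and at 0.0182 and 0.0802 in SCRM. Both were lower in both RBFOXi libraries, on 104 to 185 counts. The intervals of the log2 odds, -2.35 to 0.39 and -3.55 to 1.24, included 0. In NDUFB6, a 93 nt coding exon (chr9:32570958-32571050) was included at 0.981 and 0.975 in RBFOXi and 0.970 and 0.962 in SCRM, higher in both RBFOXi libraries, with an interval of -0.57 to 1.80.

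Complex I assembly factors were covered less deeply than the subunits. Of their 18 exons in 6 genes, 11 were included above 0.95 and 4 lay between 0.1 and 0.9, with a median count of 289.

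NDUFAF5, a hydroxylase that modifies a complex I subunit, held the member exon with the largest difference. The 98 nt exon (chr20:13795064-13795161) is annotated only in transcripts that are targets of nonsense-mediated decay or have no defined coding sequence. It was included at 0.256 and 0.316 in RBFOXi and at 0.190 and 0.0924 in SCRM. The conditions did not overlap, and the delta PSI was 0.145. The libraries held only 35 to 64 counts, and the log2 odds rose by 1.33 with an interval from -0.07 to 2.72.

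NDUFAF6, a factor for early assembly steps, had a 115 nt exon (chr8:96046236-96046350) at 0.645 and 0.647 in RBFOXi and 0.523 and 0.610 in SCRM. Both RBFOXi libraries were higher, and the interval of the log2 odds was -0.37 to 1.33. A 119 nt exon of the same gene lay between 0.764 and 0.854 on 34 to 42 counts. NDUFAF1, a chaperone for the membrane arm, had a 254 nt exon (chr15:41686303-41686556) that is annotated in a transcript subject to nonsense-mediated decay. It lay at 0.173 and 0.216 in RBFOXi and 0.208 and 0.177 in SCRM, and the SCRM values lay between the RBFOXi values.

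Further exons of assembly factors separated the conditions by small amounts. In NDUFAF7, a methyltransferase acting on a complex I subunit, the 161 nt exon (chr2:37459249-37459409) was included at 0.963 and 0.948 in RBFOXi and 0.972 and 0.971 in SCRM. In NDUFAF2, a chaperone, the 41 nt exon (chr5:60394819-60394859) was included at 0.912 and 0.921 in RBFOXi and 0.926 and 0.928 in SCRM. Both were lower in RBFOXi by 0.0161 and 0.0105, and both intervals included 0 (-2.30 to 1.22 and -1.03 to 0.62).

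Complex II has 4 subunits, all nuclear, and gave 16 exons, 12 of them above 0.95. The 102 nt exon of SDHC, one of the membrane anchors, was the only one between 0.1 and 0.9. Its length keeps the reading frame. It was included at 0.884 and 0.911 in RBFOXi and at 0.893 and 0.899 in SCRM, on 1576 to 2607 counts, and the SCRM values lay within the RBFOXi range. The log2 odds differed by 0.04 (95% interval -0.85 to 0.93).

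Complexes III and IV held no exon at intermediate inclusion. Of 16 complex III exons 12 were above 0.95 and 4 under 0.1, the latter being 3 exons of UQCRB and 1 of UQCRH, and the largest difference was 0.00605 in size. All 13 complex IV exons were above 0.95, and none differed by more than 0.00409. The 168 nt exon of COX4I1 (chr16:85838543-85838710), which encodes part of a regulatory subunit and had the most counts of all member exons, was included at 0.999 to 1.000 in the 4 libraries.

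The other genes with a COX symbol, which act in assembly, copper insertion or haem synthesis, gave 8 exons, of which 2 were above 0.95 and 3 between 0.1 and 0.9. In COX20, a factor that escorts a core subunit, the 115 nt coding exon printed above was included at 0.925 and 0.918 in RBFOXi and 0.872 and 0.905 in SCRM. It was higher in both RBFOXi libraries by 0.0326 on average, with SCRM replicate 1 the lowest. The difference was 0.0162 without that library and 0.0490 without SCRM replicate 2, and the interval of the log2 odds was -0.17 to 1.24. HNRNPU lies on the opposite strand at this exon, and the kit and the counting are not stated to keep strand, so that reads of the 2 genes cannot be told apart.

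The 96 nt and 137 nt exons listed for COX16 lie within the annotated spans of COX16, SYNJ2BP and a read-through of both genes. Which of these genes uses them was not determined, so they cannot be credited to COX16. The 96 nt exon (chr14:70842393-70842488) was included at 0.961 and 0.822 in RBFOXi and at 0.608 and 0.908 in SCRM, on 46 to 72 counts. Its delta PSI of 0.134 came from SCRM replicate 1, and without that library it was -0.0167. The 137 nt exon (chr14:70855187-70855323), with 302 to 946 counts, lay at 0.817 and 0.862 in RBFOXi and 0.789 and 0.857 in SCRM.

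ATP synthase subunits gave 27 exons of 10 genes, of which 25 were above 0.95. The ATP5I exon of 55 nt, in the gene for the small subunit e of the membrane part, was the only one at intermediate inclusion. It lay at 0.832 and 0.841 in RBFOXi and at 0.881 and 0.842 in SCRM, lower in both RBFOXi libraries by 0.0251 on average, although the replicates numbered 2 of both conditions were nearly equal. The log2 odds changed by -0.30 (95% interval -0.85 to 0.26), and MYL5 lies on the opposite strand. The 3 most covered exons, all in ATP5B, the gene for the catalytic beta subunit, were included at 0.986 to 0.998, and none of the 27 exons differed by more than the 0.0251 of ATP5I.

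ATP5S and ATP5SL, which are not structural subunits, had 3 of their exons between 0.1 and 0.9. The 172 nt exon of ATP5S (chr14:50790663-50790834) lay at 0.559 and 0.720 in RBFOXi and 0.458 and 0.719 in SCRM. The 81 nt exon of ATP5SL lay at 0.699 and 0.817 in RBFOXi and 0.613 and 0.798 in SCRM. In both exons the library numbered 1 was the lower in each condition, and the gap between numbers exceeded the gap between conditions. The 163 nt exon of ATP5SL (chr19:41939177-41939339) lay at 0.577 and 0.502 in RBFOXi and 0.477 and 0.493 in SCRM, without overlap, with an interval of the log2 odds of -0.31 to 0.94.

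**Figure D2:**
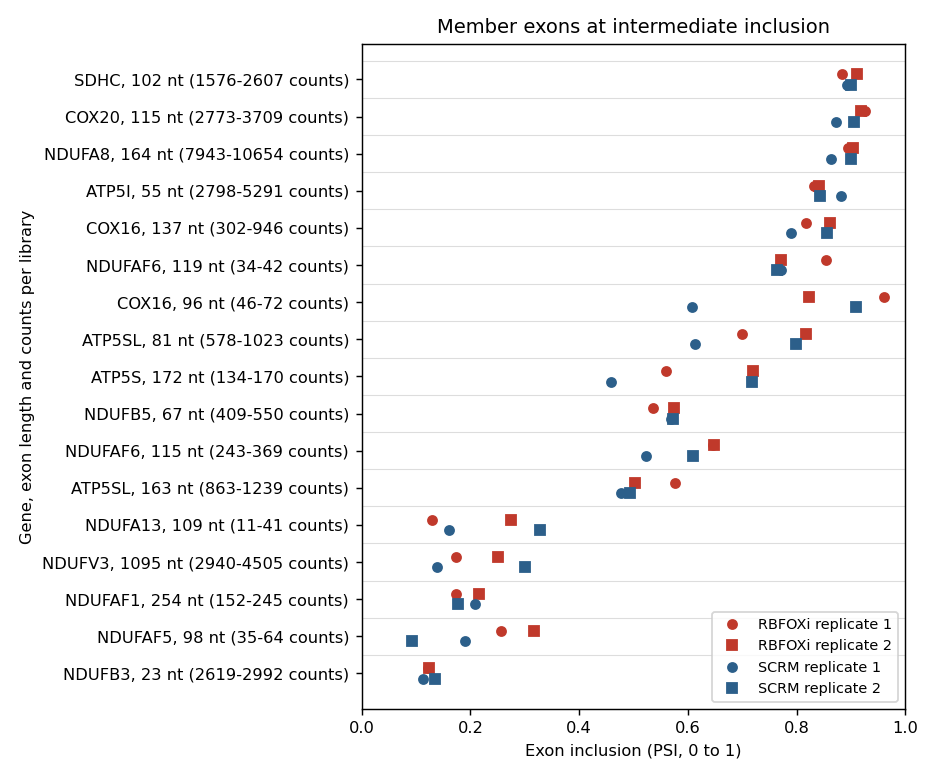
PSI (x axis, 0 to 1) of the 17 member exons with a mean PSI in SCRM between 0.1 and 0.9, each row an exon with its length and its range of counts per library, red for RBFOXi, blue for SCRM, circles for replicate 1 and squares for replicate 2. The conditions overlap in 12 of the 17 rows.

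Across these 17 exons, 12 were higher and 5 lower in RBFOXi, with a median delta PSI of 0.0174. This split rested on single libraries: it was 6 higher and 11 lower without SCRM replicate 1, 7 and 10 without RBFOXi replicate 2, 16 and 1 without RBFOXi replicate 1, and 14 and 3 without SCRM replicate 2. The conditions did not overlap in 5 of the 17 (29.4%), against 30.9% of all exons tested. In 16 of the 17 the gap between replicates of at least 1 condition was larger than the gap between conditions. The median gap between replicates was 0.0451 in RBFOXi and 0.0385 in SCRM, beside a median size of delta PSI of 0.0326.

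**Figure D3:**
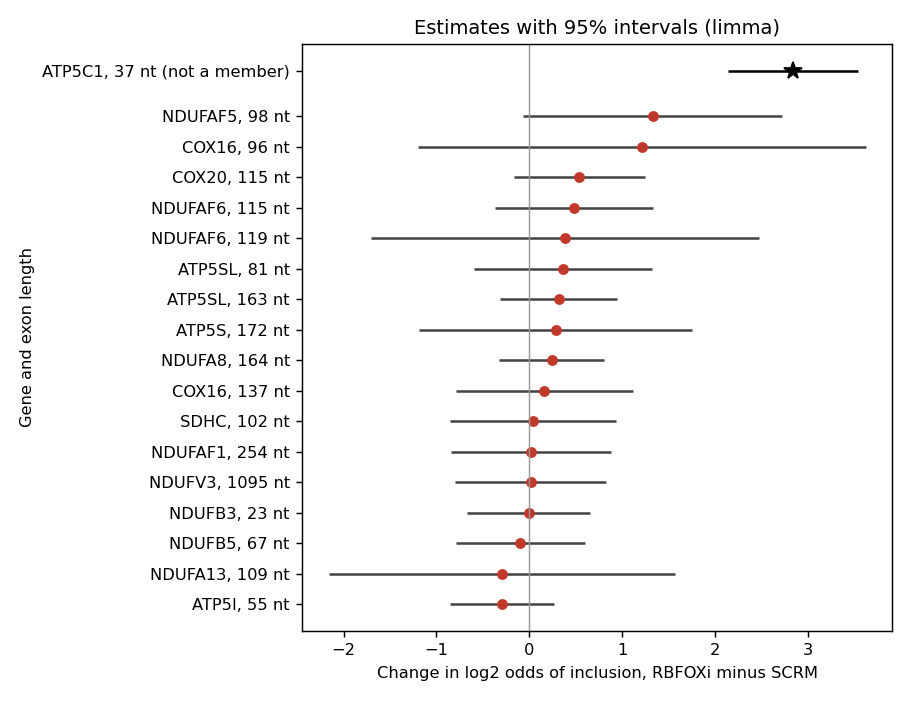
Change in log2 odds of inclusion (x axis, RBFOXi minus SCRM) of the 17 exons, as limma estimates (points) with 95% intervals (lines), and of the ATP5C1 exon (star). All 17 intervals include 0, while that of ATP5C1 runs from 2.14 to 3.54.

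The RBFOX hexamer stood beside a slightly smaller share of these exons than of all tested exons. UGCAUG, searched as TGCATG on the strand of the gene only, stood within 300 nt downstream of 10 of the 181 exons (5.52%), against 8.36% of all tested exons. It stood within 300 nt upstream of 10 (5.52%), against 8.16%. In the whole downstream intron it was found for 73 exons (40.3%), against 49.9%, with median intron lengths of 2100 nt and 2249 nt. These shares are descriptions, and a match is not a shown binding site.

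Downstream matches are printed for exons whose values are given here, with the hexamer in capitals, to set the sites beside the response. The ATP5SL match lies inside the exon in the longer form described below. They lie at chr3:179332869-179332898 (NDUFB5, plus), chr2:201937178-201937207 (NDUFB3, plus), chr5:60369222-60369251 (NDUFAF2, plus), chr19:19643595-19643624 (NDUFA13, plus), chr19:41944121-41944139 (ATP5SL, minus) and chr19:1599363-1599392 (UQCR11, minus) of hg19.
NDUFB5: aattaaagtcttTGCATGtaacagggaaaa
NDUFB3: gtaaactaaaatTGCATGtagtggaagtag
NDUFAF2: ttagtaagcagaTGCATGtatagcaaaaag
NDUFA13: actctcctgagcTGCATGactgctgtgacc
ATP5SL: gTGCATGagaaaaatcggt
UQCR11: cggtgggtggacTGCATGatggccggatgg

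The hexamer began 34 nt past the 108 nt exon of NDUFB5 (chr3:179332740-179332847), which was included at 0.996 and 0.969 in RBFOXi and 0.984 and 0.978 in SCRM. It began 193 nt past the 90 nt exon of NDUFAF2 (chr5:60368952-60369041), included at 0.964 and 0.997 in RBFOXi and 0.989 and 0.983 in SCRM. In both exons the conditions overlapped. The 108 nt NDUFB5 exon is annotated only in transcripts subject to nonsense-mediated decay. An 89 nt NDUFB5 exon with the same end (chr3:179332759-179332847) had a mean PSI of 0.996 in RBFOXi and 0.995 in SCRM. The same hexamer is counted for the 108 nt and the 89 nt exon. The hexamer began 31 nt past the UQCR11 exon, whose mean PSI was 0.998 in both conditions.

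In all, 19 exons had the hexamer within 300 nt on either side, and 17 of them were included above 0.95 in SCRM. The exceptions were the NDUFB3 exon and the YJEFN3 exon listed under NDUFA13. The conditions separated in 1 of the 19, an NDUFB8 exon whose means differed by -0.000603. An upstream hexamer lay 114 nt from the 131 nt exon of ATP5H (chr17:73038624-73038754), which was included at 0.969 and 0.975 in RBFOXi and 0.973 and 0.975 in SCRM.

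In ATP5SL the hexamer began at the second base past a 180 nt exon (chr19:41944140-41944319), included at 0.980 to 0.990. The tables also list a 5′ splice site 17 nt farther on (segment chr19:41944123-41944139), so that the hexamer lies inside the exon when that site is used. The longer form had a PSI of 0.980 and 0.981 in RBFOXi and 1.000 and 0.993 in SCRM, lower in both RBFOXi libraries by 0.0165. The log2 odds changed by -2.24 (95% interval -4.15 to -0.33), and the adjusted p in the limma fit was 0.995. This event was singled out after its values were seen. By its PSI the hexamer mostly lay inside the exon, although it is counted above as a downstream match of the 180 nt exon.

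Alternative 5′ splice sites were led in depth by NDUFS5 and ATP5J. In NDUFS5, an accessory subunit of complex I, 5′ splice sites 4 nt apart in an untranslated segment (chr1:39492071-39492074, plus strand) were used almost equally. The sequence is shown with those 4 bases in capitals, since they repeat as the start of the intron.
NDUFS5: cgagcatcggGTAGgtaggggctgct
The longer form took 0.501 and 0.518 in RBFOXi and 0.515 and 0.504 in SCRM, on 8174 to 12166 counts. This was the tightest estimate among the named events, with an interval of the log2 odds of -0.26 to 0.26.

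ATP5J, which encodes coupling factor 6 in the stalk of ATP synthase, had 16 such events, 13 of them tested, which overlap one another at 1 first exon and are not independent. The conditions did not overlap in 3 of the 13, against 30.1% of all alternative 5′ splice site events. An unadjusted limma p under 0.05 was found in 1 of the 13. The widest-read of those that separated the conditions (segment chr21:27107164-27107625, minus strand) had a PSI of 0.851 and 0.808 in RBFOXi and 0.749 and 0.777 in SCRM. Both RBFOXi libraries were higher, by 0.0665 on average, and the log2 odds rose by 0.60 (95% interval 0.10 to 1.11). The adjusted p in the limma fit was 0.995. Events over neighbouring segments lay at 0.456 and 0.449 against 0.354 and 0.399, and at 0.332 and 0.357 against 0.258 and 0.304. The event with most counts, over 634 nt, did not separate the conditions (0.786 and 0.773 against 0.736 and 0.783). GABPA is annotated on the opposite strand here, and its reads cannot be told apart from those of ATP5J without strand.

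Among alternative 3′ splice sites, COX18, which inserts a core subunit of complex IV into the membrane, had 2 pairs of neighbouring sites. They are 3 nt apart at chr4:73930617-73930619 and 4 nt apart at chr4:73933847-73933850 (minus strand), and the bases between the sites are in capitals.
COX18, 3 nt: aaactgttttagCAGgtttttctgt
COX18, 4 nt: cctattttttagCTAGgtggaaaatt
The upstream site of the first pair was used at 0.324 and 0.287 in RBFOXi and 0.333 and 0.293 in SCRM, and that of the second at 0.151 and 0.193 in RBFOXi and 0.20 and 0.187 in SCRM. Both pairs held fewer counts in SCRM replicate 1 (54 and 25) than in any other library. The intervals of the log2 odds were -0.87 to 0.76 and -1.33 to 0.83.

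The largest difference of this type, 0.0880, was in an event listed under NDUFA13 that lies in YJEFN3 (0.935 and 0.755 against 0.651 and 0.863). COX15, an enzyme of haem a synthesis, had a last-exon segment of 1239 nt (chr10:101473237-101474475) at 0.925 and 0.917 in RBFOXi and 0.846 and 0.910 in SCRM. Its interval of the log2 odds was -0.60 to 1.87, and CUTC lies on the opposite strand.

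Retained introns were measured in 8 genes. An intron of ATP5D (296 nt, chr19:1244440-1244735), the gene for the delta subunit, was retained at 0.534 and 0.597 in RBFOXi and 0.551 and 0.615 in SCRM. In both conditions the replicates differed more than the conditions did. Introns in ATP5G3, NDUFB4, NDUFS3, NDUFS7 and NDUFB10 were retained at 0.003 to 0.081. A 1633 nt segment of COX4I1, of which 189 nt are annotated as coding, had a PSI of 0.972 to 1.000 as a retained intron. Whether its reads came from the whole segment or from the coding part was not determined.

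Mutually exclusive exon events in these genes mostly paired consecutive exons that were both included in the mature transcript. In 97 of the 126 member events (77.0%) both exons had a PSI above 0.9 as skipped exons, against 78.6% of all such events. The PSI of these pairs therefore compares reads on the 5′ exon with reads on the 3′ exon. The median over members was 0.552 and 0.555 in RBFOXi, 0.488 in SCRM replicate 1 and 0.569 in SCRM replicate 2.

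SCRM replicate 1 had the lowest value of the 4 libraries in 91 of the 126 member events (72.2%) and in 59.9% of all events of this type. In the same library the respiratory chain genes took 1.60% of all counts on skipped exon events, against 1.06% to 1.08% in the other 3. By group, complex IV subunits took 0.275% there against 0.147% to 0.158% elsewhere, complex I subunits 0.539% against 0.319% to 0.337%, and ATP synthase 0.481% against 0.349% to 0.359%. Complex II did not share this, with 0.0593% in SCRM replicate 1 and 0.0521% to 0.0674% in the others. These are shares of reads on listed events and not levels of the genes, and their part in the PSI values was not tested.

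**Figure D4:**
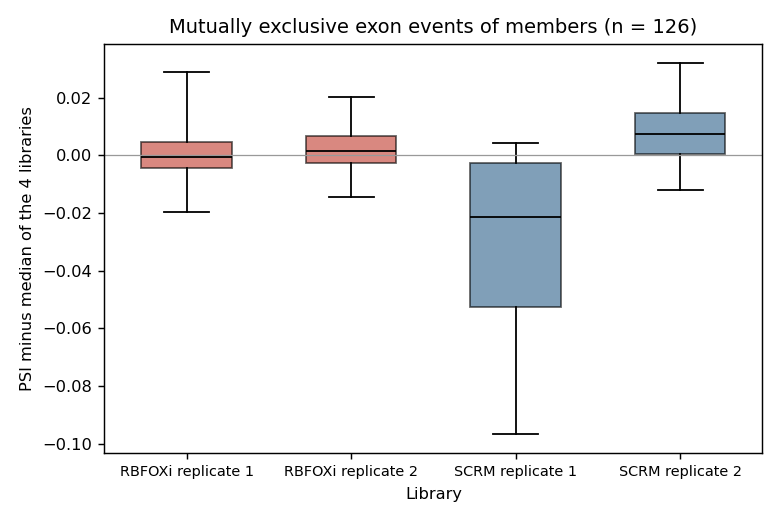
PSI of each library minus the median of the 4 libraries (y axis) over the 126 mutually exclusive exon events of respiratory chain genes, with boxes from the 25th to the 75th percentile, a line at the median and whiskers to the 5th and 95th. The box of SCRM replicate 1 lies below those of the other 3 libraries.

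The deepest of these events differed by less than the spread between the SCRM libraries or the RBFOXi libraries. A pair in COX4I1 with 27125 to 43319 counts lay at 0.720 and 0.720 in RBFOXi and 0.673 and 0.734 in SCRM, and a second pair in COX4I1 at 0.359 and 0.353 against 0.334 and 0.363. A pair in ATP5F1, the gene for a stator subunit, lay at 0.355 and 0.324 against 0.338 and 0.345. The interval of the log2 odds of the last was -0.39 to 0.36.

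The largest difference, 0.410, stood on 10 to 50 counts in the event listed under NDUFA13 that lies in YJEFN3, with 0.786 and 0.571 in RBFOXi and 0.169 and 0.368 in SCRM (limma adjusted p = 1.000). An NDUFAF5 pair on 19 to 36 counts lay at 0.385 and 0.190 against 0 and 0.362. In NDUFAF7 a pair lay at 0.569 and 0.555 in RBFOXi and 0.383 and 0.550 in SCRM, with SCRM replicate 1 apart from the other 3.

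Leaving out SCRM replicate 2, so that SCRM replicate 1 alone stood for the control and was assumed to vary like RBFOXi, brought 5 of the 126 member pairs past both thresholds in limma, against 1400 of all 26176 (5.35%). They were in ATP5F1, NDUFS1, NDUFAF7, COX5A and NDUFAF2, with delta PSI from 0.111 to 0.179, and they were chosen after their values were seen. With both SCRM libraries their delta PSI was 0.0445 to 0.0955, and without SCRM replicate 1 no member was called.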

How the data were processed

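RNA-seq libraries of U87MG cells (2 RBFOXi, 2 SCRM) were analysed from 5 tables of splicing events. The authors used STAR 2.4.2a for alignment to hg19 and rMATS, on UCSC known genes, for counting. The deposited values used are counts of inclusion and skipping reads per library, not normalized, and the effective length of each form. These deposited values are held as pairs of counts in 1 cell, a layout classed as "other" here. Gene models were from GENCODE 44 lifted to hg19, and older symbols were matched through RefSeq synonyms. The authors' p-values, FDR, inclusion levels (10 columns) and inclusion level differences were not used.

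The depth on skipped exon events was 114415530 to 136097319 counts in a library, a read that fits several events being counted in each. PSI was computed from counts divided by effective length. For mutually exclusive exons the inclusion form is the 5′ exon, as the form lengths showed in 99.6% of events with exons of unequal length. Tested events had at least 5 counts in each of the libraries, 20 on average, and 4 of either form in total. To each count 0.5 was added as pseudocount, and limma 3.58.1 (R 4.3.3) was run on log2 odds over all events of a type, with condition as the only term and a variance trend. Benjamini-Hochberg adjustment was made within the type. Tests were two-sided. The script was tested on simulated data with 1 common spread between libraries, in which 200 events were given a change of 2 log2 units. At an adjusted p under 0.05, limma recovered 72 of the 200 (36%) for skipped exons. For alternative 3′ splice sites it recovered 149 of 200 (74.5%). Many changes of that size would thus be missed among skipped exons. Reads are not separate molecules, and errors were taken from the spread between libraries.

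The members and lists were chosen with earlier results of these data known. Named events were, with 1 event per exon or segment, every called member (there was none), the 10 skipped exons with the largest delta PSI among those whose conditions did not overlap, up to 3 most covered exons per group with SCRM PSI from 0.1 to 0.9, up to 3 largest and 3 most covered events of each other type, and the 5 exons with UGCAUG within 300 nt and the largest delta PSI. The other exons at intermediate inclusion, and examples of constitutive exons, were added after their values were seen. Alternatives covered the test, pseudocount, filter, minimum of delta PSI, PSI scale, centring, the replicate block and each left-out library. Some items that the rules would name are not reported here.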

Additional observations from a re-analysis of the deposited data

How the results depend on the processing

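The count of 0 called members did not change for skipped exons, alternative 3′ and 5′ splice sites or retained introns under any alternative that was run. For mutually exclusive exons it ranged from 0 to 5 when 1 library was left out, with 5 without SCRM replicate 2, and was 0 otherwise. The fit with the replicate number as a block called 0 members of each type. Same-numbered libraries deviated together with correlations of 0.0836 to 0.118 over the 5 types, the titles of same-numbered libraries share a suffix whose meaning is not given, and the block raised the calls over all skipped exons from 27 to 119. The number of skipped exon events without overlap was 71, and 95, 71 and 71 with 1 or 20 counts per library or plain shares. The median delta PSI of skipped exon events was 7.58e-05, -0.000133 with 1 event per exon, and -0.000102 to 0.000147 when 1 library was left out.

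Of 42 named events, 23 changed sign when 1 library was left out, none of them with a called change. Their delta PSI then ranged from -0.0792 to 0.181 in ATP5S, -0.0403 to 0.145 in ATP5SL (81 nt), -0.0167 to 0.284 and -0.0171 to 0.0508 in COX16 (96 and 137 nt), -0.125 to 0.0431 and -0.0184 to 0.194 in NDUFA13 (109 nt exon and 3′ site), -0.000879 to 0.0356 in NDUFA8, -0.0194 to 0.0238 in NDUFAF1, -0.0220 to 0.0113 in NDUFAF2 (90 nt), -0.0742 to 0.288 in NDUFAF5 (exon pair), -0.0123 to 0.0100 in NDUFB3, -0.0117 to 0.0150 in NDUFB5 (108 nt), -0.00889 to 0.00823 in NDUFS5, -0.0877 to 0.0734 in NDUFV3, -0.0117 to 0.0154 in SDHC, -0.0495 to 0.0139 in ATP5D, -0.0170 to 0.0138 in ATP5F1, -0.00585 to 0.000501 in ATP5H, -0.00309 to 0.0434 in ATP5J (634 nt), -0.0276 to 0.0131 in COX18 (3 nt), and -0.0142 to 0.0468, -0.00723 to 0.0218 and -0.0238 to 0.00412 in COX4I1 (both pairs and the retained segment). As a plain share of counts NDUFV3 was higher in RBFOXi by 0.0101. The NDUFAF7 pair was called only without SCRM replicate 2 (delta PSI 0.179, limma adjusted p = 0.0153). The causes were not tested. The planned edgeR fit was not run, because values paired in 1 cell were not classed as counts here. They were split by library for the fits that were run. The median half-width of the interval of the log2 odds was 2.14 for exons above a PSI of 0.9 and 0.863 for those at intermediate inclusion.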

Other observations

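A list of 54 genes for electron carriers, further assembly factors, coenzyme Q synthesis and related functions gave 191 tested skipped exon events in 43 genes, of which 0 were called in limma and 6 had an unadjusted p under 0.05, against 3.61% of all skipped exon events. It also gave 101 mutually exclusive, 6 alternative 3′ splice site, 21 alternative 5′ splice site and 4 retained intron events, of which 0 were called. The median delta PSI of the skipped exon events was 0.000223, beside 7.58e-05 in the respiratory chain genes. Of 128 exons in these genes, 68 were higher and 60 lower in RBFOXi. The exons described below were picked after the values were seen, and all were higher in RBFOXi. They are not the full top of the list. An ETFA exon had the largest delta PSI (0.108), with overlapping conditions. ATPAF1 exons of 96 nt and 51 nt were lower in RBFOXi (-0.0556 for each), as was a DHODH exon of 188 nt (-0.0467).

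TMEM126B, an assembly factor of complex I, had a 72 nt exon (chr11:85340176-85340247) included at 0.331 and 0.307 in RBFOXi and 0.305 and 0.221 in SCRM, and a 122 nt exon (chr11:85342731-85342852) at 0.881 and 0.852 in RBFOXi and 0.823 and 0.812 in SCRM. Both were higher in both RBFOXi libraries, by 0.0560 and 0.0489, and the intervals of the log2 odds, -0.28 to 1.09 and -0.22 to 1.30, included 0. NUBPL, which delivers iron-sulphur clusters to complex I, had a 94 nt exon (chr14:32256986-32257079) included at 1.000 in both RBFOXi libraries and at 0.885 and 0.986 in SCRM, where SCRM replicate 1 had only 52 counts. Its interval of the log2 odds was 0.45 to 6.16, and its limma adjusted p was 1.000.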
